A study of Homo sapiens with 16 samples.

Results

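This comparison asks which transcripts change when paclitaxel is added to cells that already receive afatinib. It sets the 4 libraries of MDA-MB-231 cells given afatinib and paclitaxel together (the combination) against the 4 libraries of cells given afatinib alone, 8 of the 16 libraries of the series, and was read across all genes of the count table. MDA-MB-231 is a human line of triple-negative breast cancer, a type that lacks the estrogen and progesterone receptors and HER2 amplification. Both groups carried afatinib, so the difference between them is the added paclitaxel. The remaining 8 libraries, 4 given the solvent DMSO and 4 given paclitaxel alone, entered the same fit and serve below to set the paclitaxel effect with afatinib beside the effect without it. Cells were grown in DMEM with fetal bovine serum. Drug doses and exposure times are not given in the sources used here. The labels do not say whether the 4 replicates of a group came from separate cultures, so the spread between samples behind each p-value may be technical.

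Afatinib irreversibly blocks the kinases of the EGFR family, whose signals run through the RAS/ERK cascade to the cyclins that start a new cell cycle. Paclitaxel binds β-tubulin and stabilises microtubules, so that the mitotic spindle cannot attach chromosomes properly and the spindle checkpoint delays cells in mitosis. Transcripts of the cell cycle come in waves: E2F factors drive the genes of DNA synthesis at the G1/S transition. The MYB-MuvB complex with FOXM1 drives the genes of mitosis in G2. In a culture of mixed cell cycle phases, more or fewer cells of a phase and more or less RNA per cell cannot be told apart.

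The 8 libraries held 39883153 to 48108577 counts each. Replicates 1 and 2 carried more RNA than replicates 3 and 4 by the labelled concentration, and this split into 2 concentration sets was a term in the fit behind every result unless another is named. The concentration was also lower in the combination than with afatinib in each set, at a mean of 623.3 against 1001.8 ng/µl in replicates 1 and 2 and 142.8 against 184.3 ng/µl in replicates 3 and 4. Mitochondrially encoded genes took 5.98% ± 3.3 of counts in the combination and 4.98% ± 2.5 with afatinib (SD, n = 4), or 3.21 against 2.82% and 8.74 against 7.14% within the sets. The two-sided p of an exact test that permuted labels within each set was 0.0556, the smallest that 36 arrangements can give. The part of both in the results was not tested beyond a fit with log2 concentration as covariate, given beside the counts below. All 8 markers listed for MDA-MB-231 (VIM, EGFR, CD44, CAV1, KRT8, KRT18, FOSL1, AXL) were high, with a summed level of 5680 to 7140 CPM with afatinib and 5410 to 8040 CPM in the combination. The 5 markers of blood cells in the table summed to at most 1.23 CPM. Luminal breast markers summed to 24.6 to 27.1 CPM with afatinib and 22.1 to 29.7 CPM in the combination, with ESR1 (estrogen receptor) at 0.157 to 0.477 CPM and PGR (progesterone receptor) detected at 3.84 to 5.68 CPM. Sums of fibroblast markers were 13 to 23.3 against 12.4 to 27.7 CPM, and of endothelial markers 4.4 to 10.4 against 6 to 14 CPM.

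Adding paclitaxel changed 4935 of 17991 tested genes (27.4%) at an adjusted p under 0.05, 2359 of them higher (13.1%) and 2576 lower (14.3%). All 4 combination libraries lay above all 4 afatinib libraries for 1015 genes (5.64%) and below them for 1239 (6.89%). Most changes were small. A change of over 2-fold was called for 248 genes, 136 higher and 112 lower, and at an average log2 CPM of at least 3 for 9 higher and 15 lower. The median log2 fold change over all tested genes was 0.00223. Within replicates 1 and 2 alone 2528 genes were called (1085 higher, 1443 lower), and within replicates 3 and 4 alone 2019 (964 higher, 1055 lower). Without the term for the concentration sets the count was 1143, and with log2 concentration in its place 4654, of which 3808 were also called in the same direction with the sets. CPM below are counts relative to library size, scaled by TMM factors, and fold changes are log2 values with their SE.

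**Figure D1:**
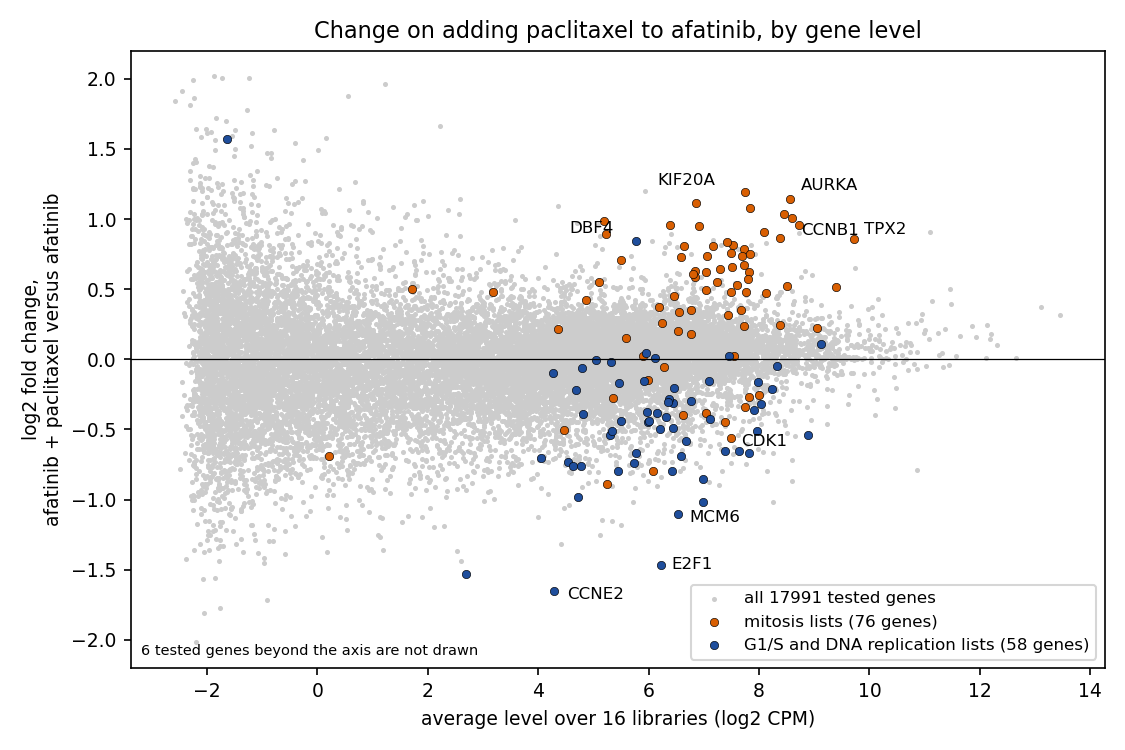
Log2 fold change of the combination over afatinib (vertical axis) against the average level over 16 libraries in log2 CPM (horizontal axis) for the 17991 tested genes in grey, 76 genes of 3 mitosis lists in orange and 58 genes of the G1/S and DNA replication lists in blue. Most orange points lie above 0 and most blue points below it, while 6 tested genes fall beyond the axis.

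Genes of mitosis led the rises. Of the 15 genes with the largest called rise at an average log2 CPM of at least 3, KIF20A, AURKA, KIF18A, CENPE, CCNB1, CKAP2, BORA, SGOL2 and CDC20 belonged to the lists of mitotic genes, and GAS2L3, at the top, encodes a protein that links actin and microtubules at the division site. GAS2L3 stood at 38.4, 48.8, 47.5 and 49.2 CPM in afatinib replicates 1 to 4 and at 97.2, 105, 115 and 105 CPM in combination replicates 1 to 4. The lowest combination library was well above the highest afatinib library, and the change was 1.20 ± 0.081 (2.3-fold, adjusted p = 1.8e-10). Afatinib replicate 1 stood below the other 3 afatinib libraries.

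Kinesins, the motors that carry cargo and chromosomes along spindle microtubules, were called higher in 13 of 14 tested cases and lower in none, with a median of 0.60 against 0.00223 over all genes. All 13 also had 4 combination libraries above all 4 afatinib libraries. KIF20A stood at 133, 160.3, 148 and 151 CPM in afatinib replicates 1 to 4 and at 321, 351, 358 and 328 CPM in combination replicates 1 to 4. KIF20A (ENSG00000112984, chr5:138178719-138187715 on hg38), a motor of the central spindle needed for cytokinesis, rose 2.29-fold (1.20 ± 0.072, adjusted p = 9.64e-12), by 1.20 and 1.19 within the 2 sets. KIF18A stood at 80.3, 88.3, 82.1 and 87.7 CPM in afatinib replicates 1 to 4 and at 184, 182, 189.6 and 175 CPM in combination replicates 1 to 4. KIF18A dampens chromosome oscillation at the ends of kinetochore microtubules and rose by 1.11 ± 0.063 (adjusted p = 5.56e-12), with no overlap of the groups. CENPE, the kinetochore motor that brings chromosomes to the spindle equator, had 128, 150.5, 186 and 211 CPM with afatinib and 284, 277, 428 and 452 CPM in the combination. Its level differed between the sets in both groups, yet every combination library was above every afatinib library (1.08 ± 0.075, adjusted p = 1.7e-10). KIF20B rose by 0.79 ± 0.068. KIF11, the motor that pushes the spindle poles apart, rose least among the members named here: its 201, 212, 224 and 229 CPM with afatinib and 232, 246, 270.3 and 272 CPM in the combination gave 0.24 ± 0.054 (adjusted p = 0.00178). The member not called was KIF2A (0.02).

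Regulators of mitotic entry, the spindle checkpoint and mitotic exit split. Of 30 tested, 19 were called higher, 8 lower and 3 neither way (median 0.34). AURKA stood at 273, 289.8, 223 and 243 CPM in afatinib replicates 1 to 4 and at 658, 708, 506 and 431 CPM in combination replicates 1 to 4. AURKA, the spindle pole kinase, rose 2.21-fold (1.14 ± 0.075, adjusted p = 5.1e-11), by 1.28 and 1.01 within the sets, and its activator BORA rose by 0.99 ± 0.079. CCNB1 stood at 249.6, 264, 243 and 252 CPM in afatinib replicates 1 to 4 and at 495, 542, 534 and 498 CPM in combination replicates 1 to 4. CCNB1 encodes cyclin B1, the partner of CDK1 that starts mitosis, and rose 2.05-fold (1.04 ± 0.059, adjusted p = 5.56e-12) with groups far apart. PLK1, a kinase of mitotic entry and spindle assembly, had 209.5, 214, 189 and 202 CPM with afatinib and 371, 402, 389.9 and 361 CPM in the combination, a rise of 0.90 ± 0.054 (adjusted p = 7.99e-12). CDC20, which activates the anaphase-promoting complex once the checkpoint is satisfied, rose from 319, 328, 262 and 275 to 612, 650, 548 and 489 CPM (0.96 ± 0.058, adjusted p = 9.93e-12). Levels of PLK1 and CDC20 did not overlap between the groups. Smaller rises were those of CCNB2 (0.74 ± 0.062), CCNA2 (0.55 ± 0.066), the checkpoint kinase TTK (0.34 ± 0.054), the centrosome kinase NEK2 (0.45 ± 0.069) and the CDK1-activating phosphatase CDC25B (0.32 ± 0.055).

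The 8 members that fell were FBXO5, PKMYT1, CDK1, FZR1, UBE2C, WEE1, AURKB and BUB3, chosen for naming after their values were seen. CDK1 stood at 224, 222, 207 and 218 CPM in afatinib replicates 1 to 4 and at 124, 139, 159.9 and 171 CPM in combination replicates 1 to 4. CDK1, the catalytic kinase of mitosis, fell by 0.56 on the log2 scale (SE 0.071, adjusted p = 1.64e-06) while its cyclins B1 and B2 rose, and all combination libraries were below all afatinib libraries. FBXO5, an inhibitor of the anaphase-promoting complex, had 50.2, 48.2, 45.8 and 49.9 CPM with afatinib and 23.3, 23.4, 27.6 and 30.9 CPM in the combination (−0.89 ± 0.078, adjusted p = 4.91e-09). PKMYT1, a kinase that holds CDK1 inactive, changed by −0.79 ± 0.068 (adjusted p = 2.37e-09). AURKB, the kinase that corrects chromosome attachment, changed by −0.27 ± 0.065 and UBE2C, the ubiquitin-conjugating enzyme of the anaphase-promoting complex, by −0.34 ± 0.087. The calls of AURKB (adjusted p = 0.0511) and UBE2C (adjusted p = 0.0994) ended with limma on the authors' concentration-corrected table.

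Of 32 spindle, kinetochore and cytokinesis genes 27 rose and 4 fell (median 0.57), and 17 of the 32 had all combination libraries above all afatinib libraries. CKAP2 stood at 286, 320.1, 282 and 290.3 CPM in afatinib replicates 1 to 4 and at 562, 594, 639.5 and 574 CPM in combination replicates 1 to 4. CKAP2, which stabilises spindle microtubules, rose 2.01-fold (1.01 ± 0.071, adjusted p = 1.29e-10). SGOL2, a shugoshin that protects cohesin at centromeres, had 59, 64.4, 65.9 and 69.4 CPM with afatinib and 123, 125, 132 and 123 CPM in the combination (0.96 ± 0.069, adjusted p = 1.72e-10). The groups did not overlap in either gene. CDCA8, a subunit of the chromosomal passenger complex, rose by 0.83 ± 0.056 and GTSE1, a microtubule-tracking protein of G2 and mitosis, by 0.81 ± 0.06. TPX2, the spindle assembly factor that activates AURKA, stood in the list of regulators and rose from 635, 662, 638 and 624 CPM to 1059, 1111, 1306 and 1173 CPM (0.86 ± 0.07, adjusted p = 1.09e-09). The members that fell were the kinetochore genes SPC25 (−0.69), SPC24 (−0.51) and ZWINT (−0.45 ± 0.054) and the spindle protein gene NUSAP1 (−0.38 ± 0.057). NDC80 and NUF2, the other subunits of the complex of SPC24 and SPC25, rose by 0.73 and 0.61. Without the term for the concentration sets, 12 regulators and 17 spindle genes were called higher.

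**Figure D2:**
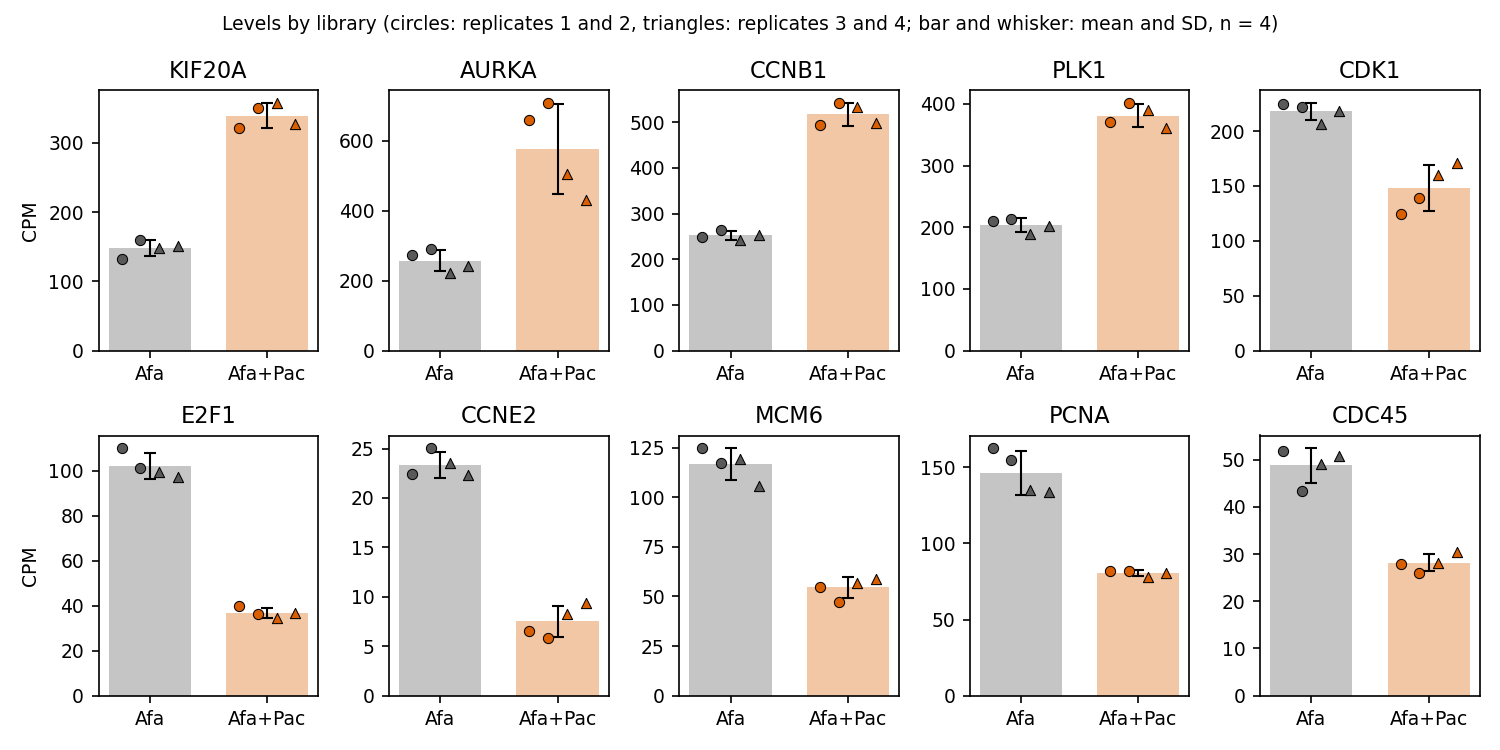
CPM of 10 genes in the 4 afatinib libraries (grey) and the 4 combination libraries (orange), with circles for replicates 1 and 2, triangles for replicates 3 and 4, and bars and whiskers for mean and SD (n = 4). KIF20A, AURKA, CCNB1 and PLK1 are higher in every combination library, and CDK1, E2F1, CCNE2, MCM6, PCNA and CDC45 are lower in every one.

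Promoter sequences of some of these genes are shown because many members of the mitosis lists share letters ahead of their start sites. The counts per list cover all tested members with a promoter sequence, those that rose and those that fell alike. The window was 250 bases before to 50 after the RefSeq start on GRCh38.p14, searched on both strands. A CHR, the element to which the DREAM and MYB-MuvB complexes bind in genes of mitosis, was taken as TTTGAA or TTCGAA (the latter reads the same on both strands), and a CCAAT box as CCAAT. A CHR was found in 16.6% of all 27305 promoters, in 11.5% of the 11641 tested genes with a promoter in the table, and in 10 of 14 kinesins, 12 of 22 regulators and 23 of 27 spindle genes (85.2%). A CCAAT box was found in 35.7% of all promoters and 36% of those of tested genes. It was found in 10 of 14 kinesins, 15 of 22 regulators and 21 of 27 spindle genes. Of the lists described below, 20 of 36 DNA replication genes (55.6%), 7 of 16 recombination and Fanconi genes and 4 of 13 G1/S genes held one. The 120 bases before the start follow for 6 genes that rose, with CHR and CCAAT letters on either strand in capitals (ATTGG is CCAAT on the other strand). In CDCA8 a CHR and a CCAAT box overlap.
PLK1: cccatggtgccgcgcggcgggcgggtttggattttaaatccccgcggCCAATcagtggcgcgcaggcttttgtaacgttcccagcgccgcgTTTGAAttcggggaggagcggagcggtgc
CDC20: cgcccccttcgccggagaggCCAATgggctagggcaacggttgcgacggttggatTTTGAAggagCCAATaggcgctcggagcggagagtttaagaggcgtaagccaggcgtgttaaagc
KIF18A: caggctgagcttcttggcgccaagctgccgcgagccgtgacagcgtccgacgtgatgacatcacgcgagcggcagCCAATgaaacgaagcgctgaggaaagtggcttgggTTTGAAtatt
CDCA8: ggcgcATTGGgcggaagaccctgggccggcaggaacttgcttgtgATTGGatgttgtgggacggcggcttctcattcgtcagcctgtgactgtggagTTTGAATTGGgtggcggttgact
KIF20A: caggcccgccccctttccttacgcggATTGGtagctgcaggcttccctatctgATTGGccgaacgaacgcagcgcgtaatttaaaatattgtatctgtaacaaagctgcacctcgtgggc
CCNB1: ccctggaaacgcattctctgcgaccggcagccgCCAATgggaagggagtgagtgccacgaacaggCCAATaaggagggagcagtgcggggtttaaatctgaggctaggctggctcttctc

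These stretches lie at chr16:23678769-23678888, plus strand (PLK1), chr1:43358861-43358980, plus strand (CDC20), chr11:28108157-28108276, minus strand (KIF18A), chr1:37692396-37692515, plus strand (CDCA8), chr5:138178992-138179111, plus strand (KIF20A) and chr5:69167030-69167149, plus strand (CCNB1). PLK1, CDC20, KIF18A and CDCA8 hold both elements within 120 bases of the start. KIF20A and CCNB1, with rises of 1.20 and 1.04, hold 2 CCAAT boxes each and neither TTTGAA nor TTCGAA on either strand of the window. Other forms of the CHR were not searched for, so its absence from these 2 promoters is not shown. A match describes letters and is not a measured binding site.

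Genes of the G1/S transition moved the other way. Of 18 cyclins, cyclin-dependent kinases, E2F factors and pocket proteins tested, 11 fell and 1 rose (median −0.30), and 8 lay below afatinib in all libraries. CCNE2 stood at 22.4, 25.1, 23.5 and 22.4 CPM in afatinib replicates 1 to 4 and at 6.55, 5.86, 8.3 and 9.36 CPM in combination replicates 1 to 4. CCNE2, cyclin E2, which drives entry into S phase with CDK2, had the largest called fall at an average log2 CPM of at least 3, 3.14-fold lower (−1.65 ± 0.095, adjusted p = 6.02e-12), by −1.93 and −1.37 within the sets. E2F1 stood at 110.2, 101, 99.4 and 97.1 CPM in afatinib replicates 1 to 4 and at 39.8, 36.5, 34.5 and 37 CPM in combination replicates 1 to 4. E2F1 (ENSG00000101412, chr20:33675683-33686404 on hg38), the activator of genes of DNA synthesis, fell 2.76-fold (−1.47 ± 0.064, adjusted p = 2.86e-14), with 4 combination libraries within a narrow range below all afatinib libraries. Its close relative E2F2 changed by −1.53 ± 0.098 from 9.49, 8.91, 9.11 and 8.28 CPM with afatinib to 2.87, 2.9, 3.38 and 3.28 CPM in the combination. The repressor E2F8 (−0.76 ± 0.063), cyclin E1 (CCNE1, −0.71 ± 0.085) and CDK2 (−0.44 ± 0.054) fell as well. CCND1, cyclin D1, which answers to growth factor signals, was not called (0.11 ± 0.058, adjusted p = 0.176). The rise was that of CCND2, cyclin D2 (1.57), at a mean of 0.141 CPM with afatinib and 0.427 CPM in the combination. CDKN1A, the p21 inhibitor of cyclin-dependent kinases, fell from 39.4, 38.9, 30.2 and 29.99 to 22.8, 23.3, 22 and 22.8 CPM (−0.60 ± 0.077, adjusted p = 1.76e-06), 1 of 4 tested inhibitors called. Within replicates 3 and 4 alone 7 members of the G1/S list were called lower.

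DNA replication genes fell almost throughout: 34 of 40 tested members were called lower and 1 higher (median −0.47, −0.53 and −0.41 within the sets), and 27 of 40 were below afatinib in all libraries. MCM6 stood at 125, 117, 119 and 106 CPM in afatinib replicates 1 to 4 and at 54.9, 47.3, 57 and 58.9 CPM in combination replicates 1 to 4. MCM6, a subunit of the ring helicase that unwinds DNA, fell 2.14-fold (−1.10 ± 0.067, adjusted p = 9.93e-12), and all 4 combination libraries stood at or under 58.9 CPM. MCM5 fell from 159, 141, 150.3 and 145 to 67.1, 64.7, 72.5 and 90.9 CPM (−1.02 ± 0.079, adjusted p = 1.41e-09). CDC45 joins the GINS complex in turning the MCM ring into an active helicase and fell, with 51.9, 43.5, 49.2 and 50.7 CPM with afatinib and 28, 26, 28 and 30.4 CPM in the combination (−0.80 ± 0.063, adjusted p = 7.82e-10). Of the GINS subunits, GINS2 fell (−0.99 ± 0.071) and GINS1 fell (−0.74 ± 0.056), while GINS3 (−0.10) and GINS4 (−0.06) were not called. PCNA, the sliding clamp of the polymerases, fell from 163, 155, 135 and 134 to 81.7, 82.2, 78.1 and 80.5 CPM (−0.86 ± 0.057, adjusted p = 5.1e-11), and the afatinib libraries were all higher. CDC6, the loader of the helicase, changed by −0.80 ± 0.065 and RRM2, the ribonucleotide reductase subunit that supplies deoxynucleotides, by −0.51 ± 0.054. The member that rose was DBF4, the activator of the CDC7 kinase that fires origins, from 49.1, 54, 34.1 and 38.6 to 95.6, 102, 66.5 and 54.6 CPM (0.84 ± 0.08, adjusted p = 3.34e-08).

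An E2F site was taken as TTTCCCGC, TTTCGCGC, TTTGCCGC or TTTGGCGC on either strand. These letters were found in 3.33% of all promoters and 5.21% of those of tested genes, in 19 of 36 DNA replication genes (52.8%), in 6 of 13 G1/S genes, and in 1 of 14 kinesins, 1 of 22 regulators and 2 of 27 spindle genes. A CHR was found in 3 of the 36 replication genes. The 120 bases before the start follow for 4 genes that fell, with E2F letters in capitals, where the MCM6 stretch holds 2 sites that overlap.
E2F1: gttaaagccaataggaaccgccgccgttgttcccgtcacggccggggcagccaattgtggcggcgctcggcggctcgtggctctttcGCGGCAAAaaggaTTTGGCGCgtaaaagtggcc
MCM6: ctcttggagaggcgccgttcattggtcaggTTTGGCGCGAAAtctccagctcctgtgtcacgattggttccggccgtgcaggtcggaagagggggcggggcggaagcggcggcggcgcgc
PCNA: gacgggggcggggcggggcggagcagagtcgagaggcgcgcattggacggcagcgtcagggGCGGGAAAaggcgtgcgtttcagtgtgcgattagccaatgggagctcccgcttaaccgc
GINS2: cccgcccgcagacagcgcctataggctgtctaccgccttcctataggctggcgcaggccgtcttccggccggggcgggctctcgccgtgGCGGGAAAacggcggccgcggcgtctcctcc

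They lie at chr20:33686386-33686505, minus strand (E2F1), chr2:135876444-135876563, minus strand (MCM6), chr20:5126623-5126742, minus strand (PCNA) and chr16:85688955-85689074, minus strand (GINS2) on GRCh38.p14. The E2F1 promoter holds 2 such sites itself. As with the CHR, this describes letters and not binding.

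Genes of DNA repair were lower as well. Of 20 genes of homologous recombination and the Fanconi pathway 13 fell and 1 rose (median −0.23). RMI2, a subunit of the complex that dissolves crossed DNA strands, had 8.35, 9.47, 7.38 and 6.87 CPM with afatinib and 3.21, 3.21, 3.19 and 2.23 CPM in the combination (−1.44 ± 0.11, adjusted p = 5.42e-10), and its partner helicase BLM changed by −0.50. EXO1, the nuclease that resects DNA ends, fell from 71.8, 75.9, 66.3 and 61.3 to 43.7, 42.7, 38 and 40.1 CPM (−0.74 ± 0.056, adjusted p = 4.08e-10). BARD1 (−0.69 ± 0.069) and its partner BRCA1 (−0.47 ± 0.054, 77.6, 77.7, 86.5 and 76.1 against 55.2, 53.9, 60.3 and 60.4 CPM) fell together, whereas BRCA2 was not called (−0.0034). The nuclease subunit EME1 rose (0.37 ± 0.083). Within either concentration set alone 7 members were called lower. UNG, the glycosylase that removes uracil from DNA, was no list member and stood among the 15 largest falls at an average log2 CPM of at least 3, from 48, 43.7, 38 and 34.8 to 19.8, 16.4, 16.2 and 16.5 CPM (−1.25 ± 0.084, adjusted p = 1.02e-10). FAM111B, a protease gene, and WDR76, both also among those 15, changed by −1.18 ± 0.068 and −1.15 ± 0.067, with no overlap of the groups in any of the 3 genes.

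The target of paclitaxel itself showed a mixed pattern. Of 12 tubulin isotypes tested, TUBB6 and TUBB2A rose, TUBB and TUBA1C fell and 8 were not called (list median 0.03). TUBB6, a β-tubulin, rose from 289, 262, 233 and 243 to 352, 358, 330.2 and 306 CPM (0.39 ± 0.055, adjusted p = 7.01e-06), and every combination library was higher. TUBB2A changed by 0.42 ± 0.067 (adjusted p = 3.92e-05). TUBA1C, an α-tubulin, fell from 446, 409.8, 334 and 342 to 287, 288, 279 and 269.8 CPM (−0.44 ± 0.07, adjusted p = 3.13e-05). TUBB changed by −0.71 ± 0.074 (adjusted p = 8e-08), but its reads were divided over 5 identifiers and its level is uncertain. Those not called were TUBA1B (−0.12 ± 0.062), TUBB3 (−0.02), TUBB4B (0.01), TUBA3D (0.03), TUBA1A (0.03), TUBB2B (0.19), TUBB1 (0.59) and TUBA4A (0.16 ± 0.063, adjusted p = 0.0569). TUBA4A passed the threshold without combination replicate 2 (0.21, adjusted p = 0.029), without afatinib replicate 1 (0.22, adjusted p = 0.0158) and with the replicate number as a block (0.16, adjusted p = 0.0134), as well as in 5 other alternatives.

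Among 24 proteins that bind microtubules outside the kinesins, 6 rose and 1 fell (median 0.13). Counted in both directions, this share is near the 27.4% of all tested genes. NAV2 and DPYSL2, named below, were no members of this list. TACC3, which crosslinks the fibres of the spindle, rose from 223, 214, 225 and 230.2 to 378, 406, 424 and 377 CPM (0.83 ± 0.056, adjusted p = 6.06e-11), and TACC2 changed by 0.71 ± 0.056. NAV2, a neuron navigator protein that associates with microtubules and was among the 15 largest rises, had 220.3, 272, 345 and 346 CPM with afatinib and 456, 506, 742 and 708 CPM in the combination (1.02 ± 0.075, adjusted p = 2.65e-10). In all 3 genes the groups did not overlap. DPYSL2, whose product binds tubulin dimers, was among the 15 largest falls (−1.04 ± 0.076). Of 23 genes that fold, tune or modify tubulin 3 rose and 3 fell, the largest fall being that of VASH1, a tubulin detyrosinase (−0.78 ± 0.13), beside the folding cofactor TBCC (−0.38 ± 0.073).

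Heat shock proteins of the cytosol rose in 11 of 14 tested cases and fell in none (median 0.32), 8 of them with all combination libraries above all afatinib libraries. BAG3 stood at 103, 102, 114 and 106 CPM in afatinib replicates 1 to 4 and at 150.2, 154, 176 and 167 CPM in combination replicates 1 to 4. BAG3, a co-chaperone that hands clients of HSP70 to autophagy, rose 1.53-fold (0.61 ± 0.061, adjusted p = 4.3e-08). HSPH1, an exchange factor of HSP70, had 337, 367, 396 and 336 CPM with afatinib and 526, 523, 581 and 530.3 CPM in the combination (0.59 ± 0.063, adjusted p = 1.05e-07). HSPA8, the constitutive HSP70, rose from 1982, 2394, 2438 and 2017 to 3003, 3118, 3274 and 3085 CPM (0.50 ± 0.077) and HSP90AA1 by 0.40 ± 0.06, with CHORDC1, a partner of HSP90, at 0.48 ± 0.063. The inducible HSPA1B (0.08) and DNAJB1 (−0.03) were not called. Without the term for the concentration sets 6 members were called higher. Of 17 chaperones of the endoplasmic reticulum 2 rose and 1 fell.

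Some outputs of growth factor signalling were lower with paclitaxel added to afatinib. Of 18 transcripts that follow ERK activity 9 fell and 3 rose (median −0.19), all 3 rises being of at most 0.20. DUSP6 stood at 32.3, 34.8, 41.6 and 39.8 CPM in afatinib replicates 1 to 4 and at 16.5, 18.4, 23.8 and 23.1 CPM in combination replicates 1 to 4. DUSP6, the phosphatase that ERK induces to switch itself off, fell 1.82-fold (−0.87 ± 0.078, adjusted p = 5.8e-09), with no overlap. SPRY1, a feedback inhibitor of receptor tyrosine kinases, fell from 8.93, 9.09, 13.7 and 11.8 to 4.65, 4.32, 6.47 and 6.13 CPM (−1.01 ± 0.11, adjusted p = 8.47e-08). PHLDA1 (−0.46 ± 0.05) and DUSP4 (−0.31 ± 0.053) fell too. Immediate-early factors, the transcription factors induced within minutes of a stimulus, fell in 6 of 16 cases and rose in 1 (median −0.37). JUND had 86, 72.1, 84.5 and 72.6 CPM with afatinib and 46.3, 41.5, 46.2 and 44.1 CPM in the combination (−0.82 ± 0.087, adjusted p = 2.48e-07), and KLF6 changed by −0.67 ± 0.086, IER5 by −0.54 ± 0.075, KLF2 by −0.58 ± 0.11 and JUNB by −0.48 ± 0.096. FOS (−0.74) and EGR1 (−0.60) had differences of like size that did not pass the test.

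Of 14 EGFR family receptors, ligands and inhibitors 2 rose and 1 fell. EGFR had 512, 493, 952 and 895 CPM with afatinib and 443, 420.2, 816 and 1023 CPM in the combination and was not called (−0.11 ± 0.088, adjusted p = 0.388), but passed with log2 concentration as covariate (−0.37, adjusted p = 0.0417). Its level was higher in replicates 3 and 4 than in replicates 1 and 2 in both groups, as was that of ERBB2, which was not called (0.07 ± 0.069, adjusted p = 0.485). LRIG3, of a family of proteins that bind these receptors, fell (−0.53 ± 0.11, adjusted p = 0.000745).

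YAP and TEAD act at the end of the Hippo pathway and respond to cell shape, and genes of this list fell in 8 of 19 cases and rose in 3 (median −0.10). CTGF stood at 216, 131, 299.0 and 288 CPM in afatinib replicates 1 to 4 and at 84.9, 56.5, 148 and 196 CPM in combination replicates 1 to 4. CTGF, a secreted matricellular protein, changed by −1.02 ± 0.25 (adjusted p = 0.01), and the groups overlapped, while levels differed between the concentration sets in both. ANKRD1 fell from 356, 263, 236 and 249.8 to 209, 165, 157 and 162 CPM without overlap (−0.67 ± 0.091, adjusted p = 1.11e-05), and CYR61 (−0.79 ± 0.18, with overlap) and AJUBA (−0.38 ± 0.053) fell. LATS2, the kinase that restrains YAP and is itself a YAP target, rose (0.35 ± 0.058), as did DLC1 (0.31 ± 0.062). In the TGF-β list 7 of 18 fell and none rose (median −0.09), led by the inhibitory factors SMAD6 (−0.87 ± 0.11) and PMEPA1, which had 59.1, 61.2, 72.5 and 58.3 CPM with afatinib and 28.5, 31.9, 39.9 and 38.6 CPM in the combination (−0.86 ± 0.071, adjusted p = 1.26e-09). The receptor TGFBR3 changed by −0.75 ± 0.10 and the activin subunit INHBA by −0.57 ± 0.11. NOG, which encodes noggin, a secreted antagonist of bone morphogenetic proteins, was among the 15 largest falls (−1.15 ± 0.16, adjusted p = 9.79e-05).

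Interferon-stimulated genes fell in 11 of 34 tested cases and rose in none (median −0.13). Of all tested genes 14.3% were called lower, and the 11 of 34 are near the 27.4% called in either direction. In this list 7 members lay below afatinib in all libraries, and 1 member that was not called lay above. DDX58, which encodes the viral RNA sensor RIG-I, fell from 43.6, 43.7, 47 and 48.4 to 30.3, 29, 37.3 and 37.8 CPM (−0.45 ± 0.055, adjusted p = 8.25e-07). IRF1, a transcription factor, changed by −0.50 ± 0.067, IFIT2 by −0.81 ± 0.15 and APOL6 by −0.74 ± 0.079. Without the term for the concentration sets 5 members were called lower, and within replicates 1 and 2 alone 7. NF-κB targets and cytokines fell in 5 of 24 cases and rose in 3, a share near the 27.4% of all genes. CSF2, which encodes the growth factor GM-CSF, had 20.4, 14, 27.3 and 31.6 CPM with afatinib and 7.48, 5.66, 10.2 and 14.4 CPM in the combination (−1.32 ± 0.18, adjusted p = 8.15e-05), with the highest combination library just above the lowest afatinib library. NFKBIA, the inhibitor of NF-κB, fell from 148, 147, 133 and 132 to 76.5, 80.5, 85.9 and 94.2 CPM (−0.74 ± 0.075, adjusted p = 7.36e-08), and RELB rose (0.24 ± 0.057).

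Cell death genes of the BCL2 family fell in 5 of 13 cases and rose in 1 (median −0.06). MCL1, the short-lived survival protein, fell from 379, 352, 388 and 369 to 238, 230.8, 311 and 305 CPM (−0.47 ± 0.065, adjusted p = 5.15e-06), and every combination library was lower. The death promoters BMF, at 1.55, 2.33, 4.53 and 3.59 CPM with afatinib and 0.997, 0.808, 1.86 and 1.79 CPM in the combination (−1.13 ± 0.16), and BID (−0.29 ± 0.062) fell as well, so that the falls included members that promote death and members that prevent it. Of 18 p53 targets 2 rose and 3 fell, and of 16 death receptors, caspases and inhibitors 2 rose and 2 fell. Both shares are near the 27.4% of all genes. In the list of FOXO factors and PI3K feedback genes 3 of 16 rose and 4 fell. The insulin receptor INSR was among the 15 largest falls, at 12.8, 15.3, 31.3 and 22.9 CPM with afatinib and 6.29, 6.37, 11.4 and 13.7 CPM in the combination (−1.12 ± 0.097, adjusted p = 4.04e-09) with overlap between the groups, while its adaptor IRS1 changed by −0.49 ± 0.06 and TXNIP, an inhibitor of glucose uptake, rose by 0.49 ± 0.068. CITED2, a coactivator-binding protein, fell by 0.67 on the log2 scale.

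In metabolism, hypoxia and glycolysis genes fell in 10 of 24 cases and rose in 1 (median −0.15), among them VEGFA (−0.48 ± 0.074), BNIP3L (−0.43 ± 0.066), BNIP3 (−0.32 ± 0.062) and ENO2 (−0.26 ± 0.048). The calls of BNIP3L (adjusted p = 0.0636) and BNIP3 (0.105) ended with limma on the authors' concentration-corrected table. Fatty acid synthesis genes fell in 5 of 11 and rose in none (median −0.14), with ACLY, which makes cytosolic acetyl-CoA, at −0.29 ± 0.059, the elongase ELOVL6 at −0.43 ± 0.061, the desaturase SCD at −0.44 ± 0.097 and their regulator SREBF1 at −0.38 ± 0.10. The groups overlapped in ELOVL6, SCD and SREBF1, whose levels differed between the concentration sets, and also in VEGFA, BNIP3L and BNIP3. Cholesterol genes split, with 5 of 19 higher and 3 lower, the latter including the sterol carrier STARD4 (−0.58 ± 0.078). Of 8 serine and one-carbon enzymes 3 fell, with PSAT1 going from 220.4, 205, 170.2 and 177 to 105, 114, 114 and 109.9 CPM (−0.79 ± 0.07, adjusted p = 4.06e-09) and MTHFD2 changing by −0.61 ± 0.071. In the ATF4 list, the response to amino acid shortage, 2 of 14 rose and 3 fell, with the glutathione-degrading CHAC1 (−0.61 ± 0.11) and the receptor VLDLR (−0.51 ± 0.091) lower. Of 11 amino acid transporters 2 rose and 2 fell, the largest fall being that of SLC38A2 (−0.75 ± 0.12), with overlap between the groups. Aminoacyl-tRNA synthetases were called higher in 5 of 19 cases and lower in none, against 13.1% of all genes called higher, by at most 0.20.

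Plasminogen system and matrix protease genes rose in 5 of 15 cases and fell in none (median 0.10), against 13.1% of all tested genes called higher and 27.4% called in either direction. No member of this list lay above afatinib in all libraries. PLAUR, the urokinase receptor, had 211, 184, 301 and 306 CPM with afatinib and 264, 255, 398 and 495 CPM in the combination (0.48 ± 0.082, adjusted p = 0.000105), higher within each set and overlapping across them. The collagenase MMP1 (0.64 ± 0.16) and the stromelysin MMP3 (0.73 ± 0.17) rose from low levels of 1.78 to 3.67 and 0.82 to 1.73 CPM with afatinib. The calls of PLAUR (adjusted p = 0.0714) and MMP1 (0.134) ended with log2 concentration as covariate and that of MMP3 (0.103) with the corrected table. Lysosome and autophagy genes rose in 7 of 21 cases and fell in none (median 0.13), among them MAP1LC3B, the autophagosome protein LC3B (0.38 ± 0.063), and the transcription factor TFE3 (0.27 ± 0.06). Beside this count stand the same shares of all genes, and no member of this list lay above afatinib in all libraries. Of 77 ribosomal proteins of the cytosol 1 rose and 1 fell, and of 76 nuclear-encoded respiratory subunits 2 rose and 10 fell.

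**Figure D3:**
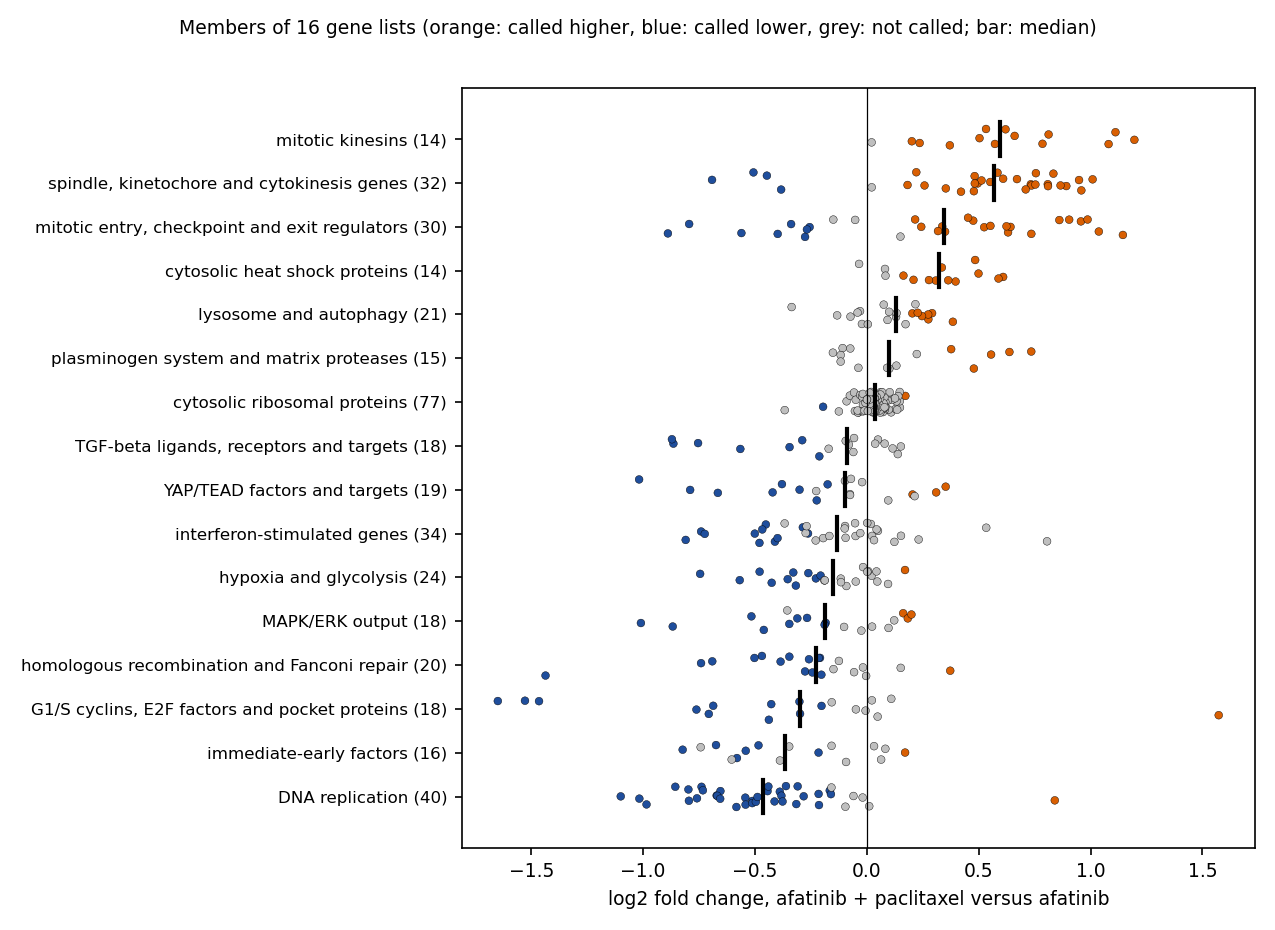
Log2 fold change of the combination over afatinib (horizontal axis) for each tested member of 16 gene lists, with the number of tested members in brackets, orange for called higher, blue for called lower, grey for not called and a black bar for the list median. Medians run from −0.47 for DNA replication to 0.60 for mitotic kinesins.

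Counted in both directions, the called members of the lists of tubulins, tubulin folding, microtubule-binding proteins, ATF4 targets and the EGFR family came near the 27.4% of all tested genes. So did those of the interferon, plasminogen and lysosome lists, where the called members of each list all went in a single direction. The other genes among the 15 largest changes in each direction at an average log2 CPM of at least 3 stood outside these lists. TMEM71 stood at 14.7, 18.9, 11.5 and 13.4 CPM in afatinib replicates 1 to 4 and at 30.7, 38.9, 29.1 and 26.3 CPM in combination replicates 1 to 4. TMEM71, a transmembrane protein gene, rose by 1.09 ± 0.12 (adjusted p = 4.88e-07), and no library of one group reached the other. ARRDC3, an arrestin-domain protein that sorts receptors for degradation, rose from 7.01, 9.8, 10.1 and 8.91 to 13.8, 16.1, 21.2 and 21.1 CPM (0.99 ± 0.14). GEM, a small GTPase that restrains calcium channels, rose by 0.96 ± 0.069 and TNFAIP8L1 by 0.97 ± 0.089. AMIGO2, a cell adhesion protein, fell from 57.8, 46.9, 64.2 and 60.4 to 24.7, 22.2, 30.1 and 36.9 CPM (−1.02 ± 0.095, adjusted p = 7.48e-08) and SERTAD4 by 1.06 on the log2 scale. The groups did not overlap in any of these 6 genes.

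The same drug was also given without afatinib, so its effect with afatinib can be set beside its effect without it. Both effects come from different libraries. Paclitaxel against DMSO changed 3694 genes (20.5%), 1557 higher (8.65%) and 2137 lower (11.9%). Of the genes called in both comparisons, 2325 moved in the same direction, which is 47.1% of those called with afatinib and 62.9% of those called without it, and 19 moved in opposite directions. Across the 9718 genes with an average log2 CPM of at least 3 the 2 sets of log2 fold changes correlated with r = 0.788 (Spearman 0.762), a description across genes, which are not independent and share the fit.

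A test of the difference itself, the paclitaxel effect with afatinib minus the effect without it, called 159 genes (0.884%), 70 higher (0.389%) and 89 lower (0.495%). In 56 of them the change had the same sign and was larger with afatinib, in 18 it had the same sign and was smaller, and in 85 the 2 changes had opposite signs. Signs were counted whether or not either change was called, so these 85 include values near 0 and are not a count of reversals. For NEK2, for example, the change was −0.0055 without afatinib (adjusted p = 0.97 in the edgeR test) and 0.45 with it. The count was unstable: it was 501 with the replicate number as a block, 367 with DESeq2, 479 without a filter on low counts, 26 with log2 concentration and 0 without a concentration term, with 2256 genes at an unadjusted p under 0.05 in edgeR's main test. Among libraries left out singly it was 34 without paclitaxel replicate 4, 45 without combination replicate 3, 47 without afatinib replicate 3 or paclitaxel replicate 1, 52 without combination replicate 2, 64 without DMSO replicate 4, 65 and 76 without afatinib replicates 2 and 1, 84 without afatinib replicate 4, 98 without DMSO replicate 1 and 279 without paclitaxel replicate 2. Within either concentration set alone it was 3 (replicates 1 and 2) and 4 (replicates 3 and 4).

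Genes of mitosis were among those whose paclitaxel effect was more positive with afatinib. The difference was called higher for 7 of 14 kinesins, 9 of 30 regulators and 13 of 32 spindle genes, and lower for none of them, against 0.389% of all genes. List medians were 0.23 without and 0.60 with afatinib for kinesins and 0.24 and 0.57 for spindle genes. With 1 library left out these counts fell to as low as 1 kinesin (without paclitaxel replicate 4), 2 regulators (without combination replicate 2 or 3, afatinib replicate 3, or paclitaxel replicate 1 or 4) and 1 spindle gene (without combination replicate 3, afatinib replicate 3 or paclitaxel replicate 1), and with the block they were 11, 16 and 18. With log2 concentration in place of the sets they were 2, 1 and 0, and without a concentration term no member of these lists had a called difference. KIF2C, a kinesin that removes faulty microtubule attachments, had 161, 158, 171 and 186 CPM with DMSO, 163, 171, 183 and 176 with paclitaxel, 168, 168, 180.5 and 185 with afatinib and 220.4, 252, 270.3 and 274 in the combination. Its paclitaxel effect was 0.04 without afatinib and 0.53 with it, a difference of 0.49 ± 0.074 (adjusted p = 0.00168). PLK1 differed by 0.41 ± 0.076 (0.50 without afatinib and 0.90 with it), CDCA8 by 0.46 ± 0.079 (0.37 without afatinib and 0.83 with it), CDC25B by 0.47 ± 0.078 (−0.15 without afatinib and 0.32 with it) and TACC3 by 0.44 ± 0.079 (0.39 without afatinib and 0.83 with it). Each of these 5 stayed called with any 1 library left out, with adjusted p of at most 0.00708, 0.0353, 0.0187, 0.0126 and 0.0249, but PLK1 and CDCA8 were not called with log2 concentration as covariate.

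In the G1/S and replication lists 3 of 18 and 1 of 40 genes had a called difference, all lower, against 0.495% of all genes called lower. Most members of both lists fell in both comparisons. The DNA replication list had a median of −0.42 without and −0.47 with afatinib. CCNE2 fell more with afatinib (−0.74 without afatinib and −1.65 with it, difference −0.91 ± 0.13, adjusted p = 0.000994), as did E2F1 (−0.93 without afatinib and −1.47 with it, difference −0.54 ± 0.088, adjusted p = 0.00274), E2F2 (difference −0.71 ± 0.14) and UNG (−0.52 without afatinib and −1.25 with it, difference −0.73 ± 0.12). Each kept its call with any 1 library left out, E2F2 with an adjusted p of up to 0.0464.

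**Figure D4:**
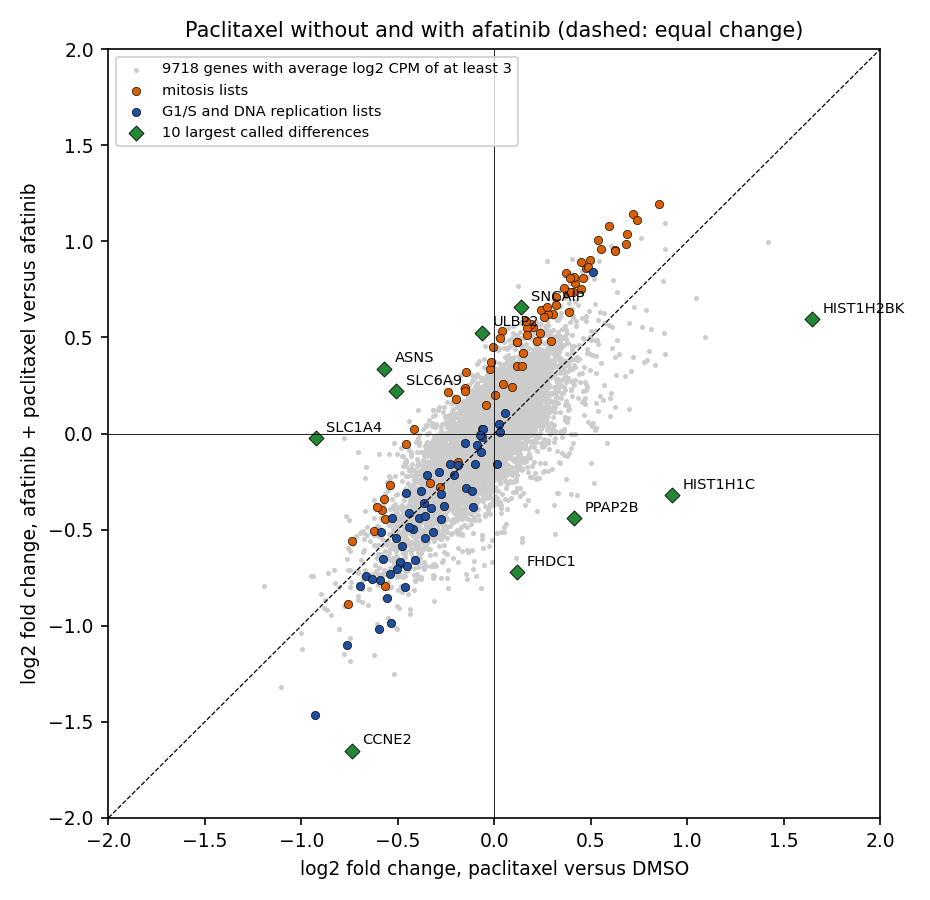
Log2 fold change of the combination over afatinib (vertical axis) against that of paclitaxel over DMSO (horizontal axis) for 9718 genes with an average log2 CPM of at least 3 in grey, the mitosis lists in orange, the G1/S and DNA replication lists in blue, and the 5 largest called differences in each direction as labelled green diamonds. Orange points with positive values lie mostly above the dashed line of equal change, and HIST1H2BK and HIST1H1C lie far below it.

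The 2 largest called differences in the other direction at an average log2 CPM of at least 3 were in histone genes. HIST1H2BK, a histone H2B gene whose transcript can be polyadenylated, had 6.77, 8.21, 6.35 and 5.1 CPM with DMSO, 21.2, 23.3, 20.8 and 17.4 with paclitaxel, 8.13, 8.44, 6.2 and 6.25 with afatinib and 11.3, 12.6, 9.35 and 10.4 in the combination. Paclitaxel raised it in both settings without overlap, by 1.65 without afatinib and 0.59 with it, a difference of −1.05 ± 0.13 (adjusted p = 0.000101). HIST1H1C, a linker histone gene, had 9.9, 7.79, 7.37 and 6.58 CPM with DMSO, 17, 14.4, 15.3 and 13 with paclitaxel, 11, 6.87, 6.78 and 7.05 with afatinib and 8.22, 5.3, 5.92 and 5.92 in the combination. Its effect was 0.92 without afatinib and −0.32 with it (difference −1.24 ± 0.19, adjusted p = 0.00274), the latter not called, though it passed with a block for the replicate number (adjusted p = 0.00589), without combination replicate 1 (0.0349) and without afatinib replicate 2 (0.0294). Of 26 clustered histone genes tested 5 had a called difference, all lower, against 0.495% of all genes called lower. With afatinib present 7 of the 26 rose and 2 fell, with HIST1H2BD at 1.06 ± 0.13, HIST1H4I at 0.60 ± 0.12 and HIST2H2BE at 0.99 ± 0.21.

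The 5 largest called differences in the positive direction at an average log2 CPM of at least 3 were those of ASNS, SLC1A4, SLC6A9, ULBP2 and SNCAIP. By list, the difference was called higher for 3 of 14 ATF4 genes, 2 of 11 amino acid transporters and 1 of 8 serine and one-carbon enzymes. It was also called higher for 4 of 19 aminoacyl-tRNA synthetases, of which 7 were called lower with paclitaxel alone. None of these lists held a difference called lower, and over all genes 0.389% were called higher. ASNS, asparagine synthetase, had 87.5, 87.5, 81.1 and 75.8 CPM with DMSO, 47.3, 64, 64.7 and 47.5 with paclitaxel, 60.8, 55.4, 54.7 and 56.7 with afatinib and 59.5, 64.4, 84.6 and 80.01 in the combination. It was lower with paclitaxel alone in every library and higher in the combination within replicates 3 and 4 (−0.57 without afatinib and 0.34 with it, difference 0.91 ± 0.16, adjusted p = 0.0183), a difference that missed the threshold without afatinib replicate 3 (adjusted p = 0.0504). Its own rise over afatinib (adjusted p = 0.0382) was lost without combination replicate 3 (0.127) or 4 (0.135), without afatinib replicate 2 (0.0765), 3 (0.107) or 4 (0.0934), and with the replicate number as a block (0.0646). The neutral amino acid transporter SLC1A4 had 15.3, 11.3, 20.03 and 25.7 CPM with DMSO, 6.99, 7.24, 11.4 and 12.2 with paclitaxel, 10.5, 9.04, 18.2 and 18.1 with afatinib and 8.12, 8.71, 17.3 and 22.4 in the combination, an effect of −0.93 without afatinib and −0.02 with it (difference 0.90 ± 0.16, adjusted p = 0.00773). The glycine transporter SLC6A9 (−0.51 without afatinib and 0.22 with it) differed by 0.73 ± 0.14, a call lost without paclitaxel replicate 4 (adjusted p = 0.055). CHAC1 fell in both settings (−1.63 without afatinib and −0.61 with it, difference 1.02 ± 0.17, adjusted p = 0.00274).

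The remaining large differences were in single genes. PPAP2B, a lipid phosphatase, had 9.08, 7.66, 11.9 and 13.7 CPM with DMSO, 12, 9.44, 16.6 and 18.8 with paclitaxel, 12.3, 10.8, 20.3 and 16.5 with afatinib and 9.02, 7.59, 12.1 and 15.6 in the combination (0.41 without afatinib and −0.44 with it, difference −0.86 ± 0.14, adjusted p = 0.00274). FHDC1, a formin that acts on actin and microtubules, had an effect of 0.12 without afatinib and −0.72 with it (difference −0.83 ± 0.14, adjusted p = 0.00316). The NK cell ligand ULBP2 (−0.06 without afatinib and 0.53 with it, difference 0.59 ± 0.13) and SNCAIP (0.14 without afatinib and 0.66 with it, difference 0.52 ± 0.12) rose with afatinib present. ULBP2's difference was lost without afatinib replicate 2 (adjusted p = 0.0623) or 4 (0.0563), DMSO replicate 4 (0.061) or paclitaxel replicate 1 (0.0653) or 4 (0.0701). That of SNCAIP was lost in 9 of 16 fits that left out 1 library, with adjusted p of up to 0.108. With log2 concentration as covariate the differences of PPAP2B (adjusted p = 0.125), FHDC1 (0.173), ULBP2 (0.14) and SNCAIP (0.146) were not called, nor was the rise of ULBP2 over afatinib (0.0853).

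**Figure D5:**
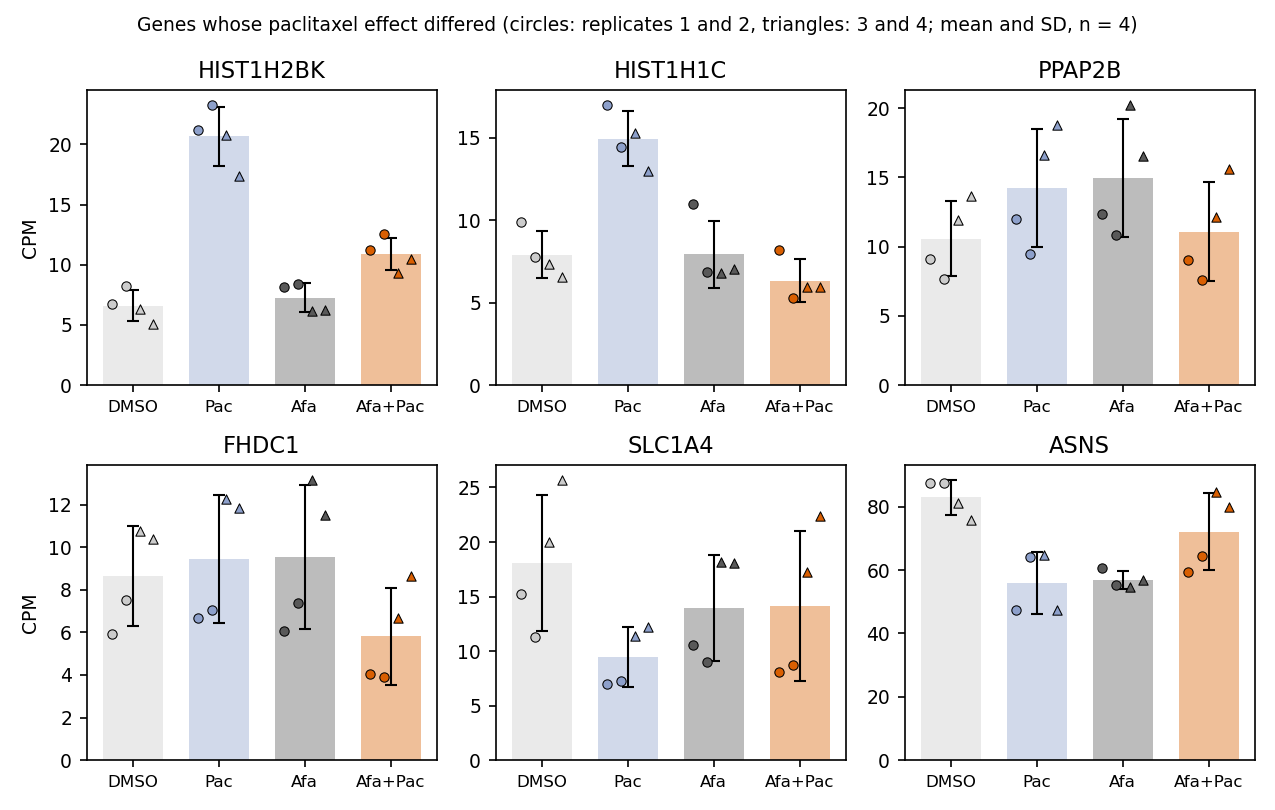
CPM of 6 genes with a called difference between both paclitaxel effects, in 4 libraries each of DMSO, paclitaxel (Pac), afatinib (Afa) and the combination (Afa+Pac), with circles for replicates 1 and 2, triangles for replicates 3 and 4, and bars and whiskers for mean and SD (n = 4). HIST1H2BK is highest in every library given paclitaxel alone, and ASNS is lower with paclitaxel alone than with DMSO in every library.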

How the data were processed

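Bulk RNA-seq counts per gene were deposited by the authors for 16 libraries of MDA-MB-231 cells. Per the submitters' processing notes, STAR 2.7.5b was the aligner, hg38 the build and featureCounts (Subread 2.0.1) the counter. The strand setting is not given in the sources used here. The authors also deposited log2 values corrected for RNA concentration, used here as an alternative, and gene lengths.

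Counts were fitted with edgeR 4.0.16 in R 4.3.3 (TMM scaling, robust quasi-likelihood F-test) on all 16 libraries, with group and concentration set (replicates 1 and 2 against 3 and 4) as terms. The filter filterByExpr (minimum count 10, minimum total 15) left 17991 of 37864 genes. Genes with an adjusted p under 0.05 (Benjamini-Hochberg) count as called. Per-set differences used log2 CPM with a prior count of 2. The script was tested on simulated data. The 8 libraries compared had 39883153 to 48108577 counts, with a common biological coefficient of variation of 7.41%. No pair of libraries looked like copies.

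Members and lists were chosen with earlier results of these data known. Named are the 15 largest called changes per direction at an average log2 CPM of at least 3 with one sign in both sets, up to 4 members per list by smallest p, all tubulins, EGFR and ERBB2, and the 5 largest called differences per direction. Which list members are printed, mostly those whose call no single library changed, and names beyond this rule were chosen after values were seen. Some of these genes are counted and not reported here. Some listed genes (TUBA3C, ATAT1, SKA1, CDKN2A, CDKN2B, ABCB1, HBB, TYROBP, DCN) were not analysed here.

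Same-numbered afatinib and combination libraries deviated together (correlation of deviations from group means 0.572 to 0.644, over all groups 0.367 to 0.704), each over 0.1, the criterion for pairing. The main fit took this up only through the concentration set. The replicate number entered as a block in an alternative fit alone. Libraries of the same set with another number correlated as much (0.503 to 0.668), and with set means removed the same-number values were −0.103 to −0.0102, so the pairing is no closer than the concentration set. Alternatives were RLE scaling, DESeq2 1.42.0, no filter, 8 libraries only, a replicate block, no concentration term, log2 concentration, each set alone, limma 3.58.1 on the corrected table, a null fold of 1.5, and each library left out. Promoter windows are from RefSeq on GRCh38.p14.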

Additional observations from a re-analysis of the deposited data

Results flagged for a closer look

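In 300 groups of 4 libraries (150 named genes, afatinib and combination), 9 held a library far from the other 3 relative to the range of the 4. Chance flags about 1 in 20 groups of 4 like libraries, a rate that need not hold for libraries from 2 concentration sets. A flagged distance can be small, as for TTK, where the other combination libraries stood at 116.7 to 117.8 CPM. With afatinib these were replicate 1 for GAS2L3 (38.4 CPM), HIST1H1C (11 CPM) and CDK2 (73.4 CPM) and replicate 3 for BRCA1 (86.5 CPM). In the combination they were replicate 1 for UNG (19.8 CPM), TTK (110.4 CPM) and ANKRD1 (209 CPM), replicate 3 for HSPH1 (581 CPM) and replicate 4 for RMI2 (2.23 CPM).

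For 39 of the 150 named genes the paclitaxel effect with afatinib differed from the effect without it in the test of the difference. Over all tested genes 0.884% were called. The named genes include the 5 largest called differences per direction, which were picked by this same test, and others named after values were seen. The 39 of 150 is therefore no measure of how often the effects differ. Higher with afatinib, as log2 differences, were the genes of mitosis and the spindle AURKA (0.43), KIF18A (0.37), CENPE (0.48), CCNB1 (0.35), CKAP2 (0.47), SGOL2 (0.41), CDC20 (0.33), PLK1 (0.41), GTSE1 (0.35), CDCA8 (0.46), KIF2C (0.49), NEK2 (0.46), TTK (0.36), CDC25B (0.47), KIF11 (0.39), TACC3 (0.44) and TACC2 (0.34). The same held for ASNS (0.91), SLC1A4 (0.90), SLC6A9 (0.73), CHAC1 (1.02), PSAT1 (0.40), ULBP2 (0.59), SNCAIP (0.52) and CHORDC1 (0.38). Lower with afatinib were the S phase genes CCNE2 (−0.91), E2F1 (−0.54), E2F2 (−0.71), UNG (−0.73), FAM111B (−0.43) and GINS2 (−0.45), the histone genes HIST1H1C (−1.24), HIST1H2BK (−1.05), HIST1H4I (−1.11) and HIST2H2BE (−1.40), and PPAP2B (−0.86), FHDC1 (−0.83), CITED2 (−0.66) and BMF (−0.95). Of the 39, 16 kept the call in all 16 fits that left out 1 library, 16 kept it with log2 concentration as covariate, and 39 kept it with the replicate block.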

How the results depend on the processing

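The count of genes called between combination and afatinib stayed within 1.5 times under RLE scaling, DESeq2, no filter, the 8 libraries alone, log2 concentration, the replicate block and the corrected table, and was 4027 to 4611 with 1 library left out. It moved to 1143 (468 higher, 675 lower) without a concentration term, to 2528 (1085, 1443) within replicates 1 and 2, to 2019 (964, 1055) within replicates 3 and 4, and to 107 (54, 53) against a null fold of 1.5. The cause was not tested, though the sets alone hold fewer samples.

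The count for the difference between both paclitaxel effects moved to 367 with DESeq2 (200 higher, 167 lower), 479 without a filter (283, 196), 501 with the replicate block, 26 with log2 concentration (11, 15) and 0 without a concentration term (0, 0), where the cause was not tested. The sets alone gave 3 (replicates 1 and 2, all lower) and 4 (replicates 3 and 4, 1 higher), and the range was 34 to 279 with 1 library left out (higher 14 to 140, lower 20 to 139).

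List counts and single genes' differences between both paclitaxel effects were added as alternatives after seeing the data. Without a concentration term 12 regulators and 17 spindle genes were higher, 6 heat shock genes were higher, and 6 recombination and 5 interferon genes were lower. Within replicates 3 and 4, 7 G1/S and 7 recombination genes were lower, and within replicates 1 and 2, 7 recombination and 7 interferon genes.

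Of 150 named genes 142 were called. Calls were lost for 38 without a concentration term, 15 within either set, 10 with the corrected table and 4 with log2 concentration, and leaving out 1 library ended 1 call (ASNS). The replicate block ended the call of ASNS, added HIST1H1C and TUBA4A, and changed no other named call between combination and afatinib. Signs reversed for genes that were not called: SLC1A4 without a concentration term (0.016), within replicates 3 and 4 (0.14) and without combination replicate 1 (0.054) or 2 (0.032) or afatinib replicate 1 (0.025), with −0.17 to 0.054 over all libraries left out singly, TUBA1B in the corrected table (0.0019), EGFR within replicates 3 and 4 (0.00012), and ERBB2 with log2 concentration (−0.10), within replicates 3 and 4 (−0.0012) and in the corrected table (−0.074).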

Other observations

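Mitochondrial ribosomal RNA and mitochondrial messenger RNA did not change alike in the counts. MT-RNR1, the small ribosomal RNA of mitochondria, had 243, 291, 468 and 324 CPM with afatinib and 494, 488, 747 and 750 CPM in the combination (log2 fold change 0.90), and MT-RNR2, the large one, rose by 0.91. None of the 13 protein genes of the mitochondrial genome was called by edgeR (median 0.23), though all 13 values were positive, from 0.017 to 0.43. Whether the 2 kinds of RNA differed in their change was not tested. The call of MT-RNR1 ended with limma on the corrected table (adjusted p = 0.0571). Both genes were chosen after their values were seen.

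By gene type, 32.7% of 13251 tested protein-coding genes were called, 2141 higher and 2186 lower. Of 792 lincRNA genes 44 were higher and 108 lower (19.2% called). Of 1019 antisense genes 27 were higher and 125 lower (14.9%), though reads of a gene and its antisense partner may not be told apart here because the strand setting is not given. Of 1378 processed pseudogenes 66 were higher and 23 lower (6.46%), and their reads can come from the parent gene.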
